A study of Arabidopsis thaliana with 5 samples.

Results

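Introns longer than 1000 nt are rare in Arabidopsis. Among the transcripts listed first for protein-coding genes on the 5 nuclear chromosomes, 737 of 118119 introns passed this limit, in 702 genes. Bases that any other annotated gene or exon also covers were left out, which kept 881.48 kb of intron sequence and removed all bases of 59 introns. The median length was 1287 nt (highest 10234 nt), against 99 nt in the 117382 shorter introns. By place, 622 interrupted coding sequence, 90 lay in 5′ UTRs and 25 in 3′ UTRs, and 398 were the first intron of their transcript. The study sequenced unopened flower buds of Arabidopsis thaliana in 5 libraries. The dsRNA-seq libraries came from rdr6 mutants in the Col-0 background after 1 round of rRNA depletion, and from wild-type Col-0 plants after 2 rounds (2X Ribominus) and after 1 round (1X Ribominus). Each of these RNAs was digested with RNase One, which cuts single-stranded RNA, so that paired stretches and RNA duplexes remain. The smRNA-seq libraries came from rdr6 and from wild-type Col-0. The labels name the mutant as rdr6 alone, and the study's methods give the allele as rdr6-11. Each condition has 1 library, and for dsRNA-seq the RNA of biological replicates was pooled before sequencing. No difference between libraries therefore has a replicate check, and a p below compares 2 libraries of reads, not 2 genotypes or 2 treatments.

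An intron is transcribed with its gene and normally removed and degraded. Long introns of plants often hold transposable elements or other repeats, and such DNA is commonly methylated. In that pathway RNA polymerase IV makes a transcript, RDR2 copies it into double-stranded RNA, and DCL3 cuts the duplex into siRNAs of 24 nt that guide methylation back to the same DNA. Because both strands of the duplex are present, these siRNAs come from both strands of the locus. RDR6 is another RNA-dependent RNA polymerase, best known for duplexes that are cut into siRNAs of 21 nt. An intron can also pair with itself, which gives RNase-resistant fragments of the sense strand without a copied strand.

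Reads with a single genomic location and lying wholly in kept intron bases were counted, by strand relative to the gene. Such nuclear reads numbered 1492190 (rdr6 dsRNA), 1531342 (2X), 1310406 (1X), 6767079 (rdr6 smRNA) and 6094830 (Col-0 smRNA), and levels are given as RPM, reads per 1000000 of these totals, or as RPKM, RPM per 1000 kept intron bases. The libraries differed in read length over the whole genome. Reads of 24 nt made up 2.42% (rdr6 dsRNA), 4.75% (2X), 23.4% (1X), 74.3% (rdr6 smRNA) and 72.2% (Col-0 smRNA), and the 2X library alone held reads of 15 and 16 nt (9.43%). The 2X library is also labelled with a different 3′ adapter. Floral identity genes were present in exon reads of every dsRNA library, for instance PISTILLATA with 123 (rdr6), 292 (2X) and 214 (1X) sense reads. RDR6 exons had 7 (rdr6), 53 (2X) and 17 (1X) sense reads, too few to check the mutant, and the effect of the allele on this RNA was not tested.

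The small RNAs of the long introns are best seen in the introns with the most of them. For each of these 6 introns, the most abundant 24-nt sequence of the Col-0 smRNA library is printed below for each strand, to show how sense and antisense RNAs lie to each other. Sequences are those of the TAIR10.1 genome at the mapped position, 5′ to 3′ on the strand of the read, with 1-based coordinates, and their counts are of reads with the same mapped ends. The capital marks the 5′ base, which in 24-nt siRNAs is often A because ARGONAUTE4 prefers it.
LBD26 intron 1, sense, chr3:10374457-10374480, plus strand: Ggaaatgttcgacgagcagctctc
LBD26 intron 1, antisense, chr3:10374457-10374480, minus strand: Gagagctgctcgtcgaacatttcc
HAK5 intron 3, sense, chr4:7800667-7800690, minus strand: Atggctctgagcctctgactggtt
HAK5 intron 3, antisense, chr4:7800814-7800837, plus strand: Aaaattgttcttcgggaggacgtg
CYP714A2 intron 1, sense, chr5:8566045-8566068, minus strand: Ggggcggacaacaaagcgctgtgg
CYP714A2 intron 1, antisense, chr5:8566014-8566037, plus strand: Acactaactgtggattgtctttag
AT4G03380 intron 3, sense, chr4:1487364-1487387, minus strand: Agggggacacagatcgttcacacc
AT4G03380 intron 3, antisense, chr4:1487356-1487379, plus strand: Aagcaaagggtgtgaacgatctgt
AT1G64340 intron 2, sense, chr1:23880595-23880618, plus strand: Gcgcgaatgtgtgatgagtcttgg
AT1G64340 intron 2, antisense, chr1:23880558-23880581, minus strand: Taaaacttgtagacgattgggagc
AT4G03380 intron 5, sense, chr4:1485737-1485760, minus strand: Aatcgaatggttgattagatttga
AT4G03380 intron 5, antisense, chr4:1485791-1485814, plus strand: Aaaccacggtctatgctcgtctac

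In LBD26 the leading sense and antisense RNAs were exact complements over the same 24 bases, and in AT4G03380 intron 3 they overlapped in part. In the other 4 introns they did not overlap. The same ends recurred in the other genotype. The LBD26 pair had 98 sense and 70 antisense reads in rdr6 smRNA, against 87 and 62 in Col-0 smRNA, and the CYP714A2 pair had 661 and 173 in rdr6, against 457 and 214 in Col-0. In the dsRNA-seq libraries these ends were rarer. The HAK5 antisense RNA was read 2 times in rdr6, 0 times in 2X and 18 times in 1X, and the AT1G64340 sense RNA 3 times in rdr6, 0 times in 2X and 9 times in 1X.

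Fragments of the dsRNA-seq libraries were often shorter than siRNAs. The position of the most-read rdr6 dsRNA sequence is shown next for 4 introns, with bases in capitals where a 24-nt read of the same strand covered them in Col-0 smRNA. All 4 are in capitals throughout, so each lies inside sequence that also gave 24-nt small RNAs.
AT1G53640 intron 2, antisense, chr1:20024369-20024388, plus strand: GCCGGGCCTGGGTGGAAGGT
CYP714A2 intron 1, sense, chr5:8566050-8566068, minus strand: GGGGCGGACAACAAAGCGC
HAK5 intron 3, antisense, chr4:7800670-7800687, plus strand: CAGTCAGAGGCTCAGAGC
AT5G38540 intron 1, antisense, chr5:15430009-15430025, plus strand: TCCGGAGCTGGAAAGGA

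The CYP714A2 fragment starts at the 5′ end of that intron's leading sense 24-nt RNA, and the HAK5 fragment is the reverse complement of a stretch inside the leading sense 24-nt RNA of HAK5. Since the 4 were chosen by their reads in rdr6, their higher level there is no finding. The AT1G53640 fragment was read 234 times in rdr6, 14 times in 2X and 127 times in 1X, and never in either smRNA library. The CYP714A2 fragment had 95 reads in rdr6, 2 in 2X and 11 in 1X, with 2 in each smRNA library. The AT5G38540 fragment had 99 reads in rdr6, 9 in 2X and 6 in 1X, and none in smRNA.

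Long introns held more RNA of every library per base than shorter introns. The density was 3.19 RPKM in long and 0.982 RPKM in shorter introns for rdr6 dsRNA (3.25 times), 1.64 and 1.05 for 2X (1.56 times), and 3.02 and 0.972 for 1X (3.11 times). For small RNAs it was 6.14 and 1.09 in rdr6 (5.62 times) and 5.69 and 1.07 in Col-0 (5.33 times). A read had to lie wholly in kept bases, so short introns offered fewer positions per base. This raises the ratios of long over shorter introns by an amount that was not measured. For 24-nt reads the excess was 3.08 times in rdr6 dsRNA, 1.98 times in 2X, 5.11 times in 1X, 5.89 times in rdr6 smRNA and 5.65 times in Col-0 smRNA. Without reads of 20 to 25 nt it was 2.92 times in rdr6 dsRNA, 1.42 times in 2X and 1.83 times in 1X. Introns above 500 and up to 1000 nt were closer, at 2.12 RPKM in rdr6 dsRNA, 1.83 in 2X and 2.35 in 1X. In 2X they thus exceeded the long introns. Without reads of 20 to 25 nt they had 1.35 in rdr6 dsRNA, 1.22 in 2X and 1.20 in 1X. The long introns then had 1.81 (rdr6), 0.992 (2X) and 0.904 (1X). A single intron, the second of AT1G53640, carried 26.7% of the long-intron reads in rdr6, 5.79% in 2X and 14.2% in 1X. Without it the densities were 2.34 (rdr6), 1.55 (2X) and 2.59 (1X). The 10 introns with the most reads held 61.6% (rdr6), 35.6% (2X) and 49.6% (1X), so these sums describe a minority of the 737.

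**Figure D1:**
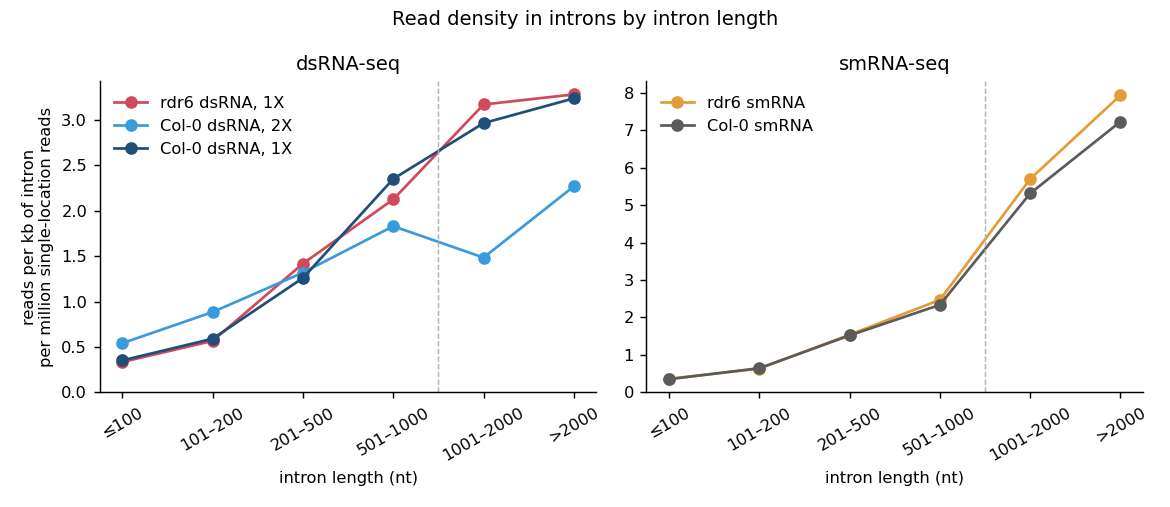
Density of single-location nuclear reads (RPKM, over kept intron sequence) for classes of intron length, in each of the 5 libraries (1 library per condition, no error bars). The density of small RNAs is highest in introns over 2000 nt, at 7.93 in rdr6 and 7.23 in Col-0.

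Strands were balanced in the small RNAs and differed between the dsRNA-seq libraries. Of the long-intron reads, 2193 of 4196 were antisense in rdr6 dsRNA (52.3%, 95% Wilson interval 50.8–53.8%), 771 of 2212 in 2X (34.9%, 32.9–36.9%) and 1908 of 3485 in 1X (54.7%, 53.1–56.4%). Shorter introns were more one-sided, with 31.9% (rdr6), 17.7% (2X) and 30.5% (1X) antisense. Without AT1G53640 intron 2 the shares in long introns were 42.8% (rdr6), 32.3% (2X) and 48.9% (1X), still above those of shorter introns. Antisense small RNAs made up 48.3% in rdr6 and 48.4% in Col-0.

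Read length separated the libraries further. Reads of 24 nt made up 104 of the long-intron reads in rdr6 dsRNA (2.48%), 133 in 2X (6.01%) and 1436 in 1X (41.2%, interval 39.6–42.8%), whereas reads of 17 to 19 nt made up 50.8% (rdr6), 30.4% (2X) and 21.4% (1X). In the smRNA libraries 24 nt was the length of 27464 reads in rdr6 (74.99%) and 22702 in Col-0 (74.2%), and 21 nt that of 732 in rdr6 and 714 in Col-0. Reads of full sequencing length, 38 nt, were mostly sense in all 3 dsRNA-seq libraries, with 20.7% (rdr6), 11.6% (2X) and 9.73% (1X) antisense.

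**Figure D2:**
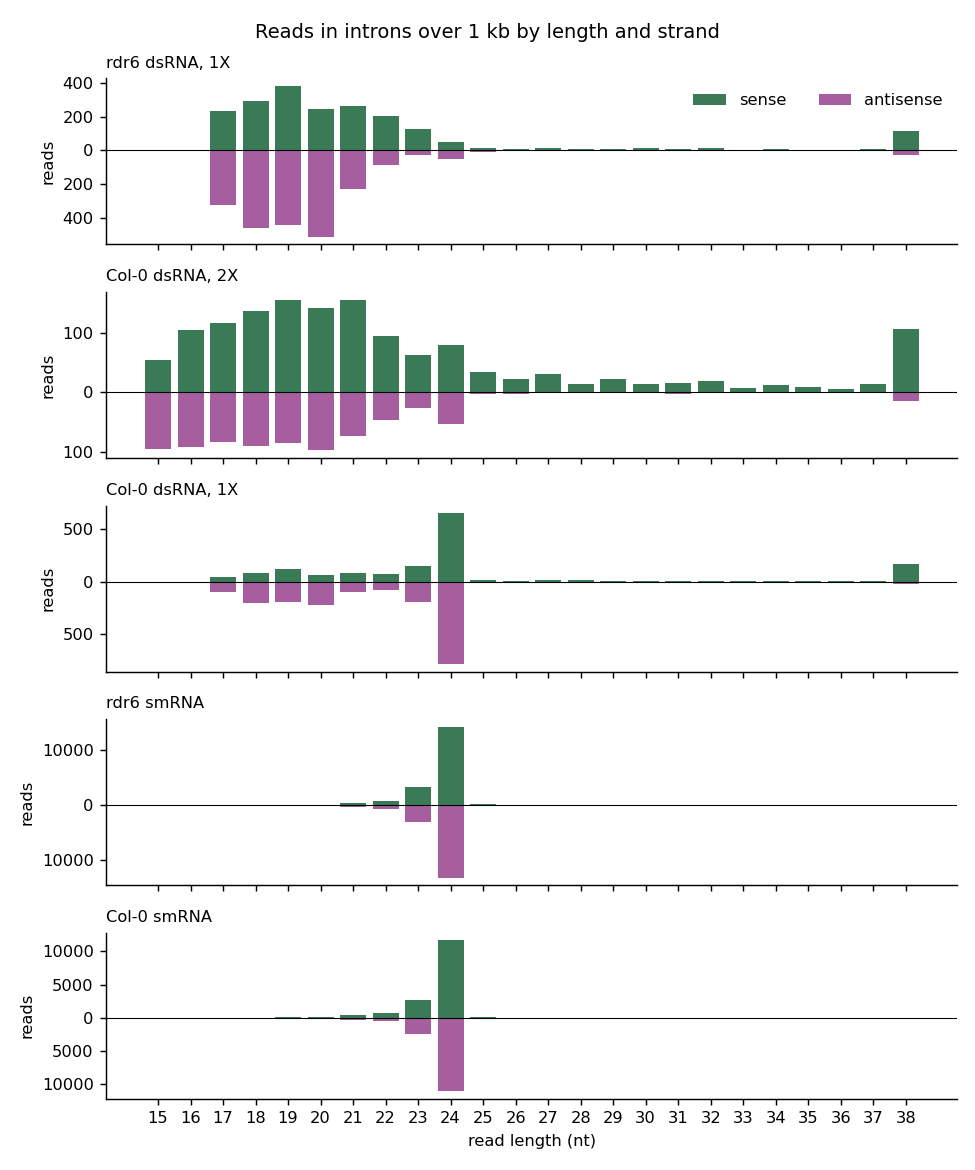
Long-intron reads by length (nt) and strand in each library, with sense reads above and antisense reads below the zero line. The 24-nt peak stands out in 1X, with 1436 reads, and in both smRNA libraries, and is low in rdr6 dsRNA and in 2X.

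The 24-nt reads of the dsRNA-seq libraries were compared by position with the small RNAs of the same genotype. Both ends equalled those of a small RNA on the same strand in 73.1% of 104 reads in rdr6, 39.8% of 133 in 2X and 76.9% of 1436 in 1X. These loci are densely covered by small RNAs, and the share that would match by position alone was not tested. Of the reads of 17 to 19 nt, 95.7% in rdr6, 70.2% in 2X and 95.2% in 1X overlapped a small RNA of the same strand, while 5.16% in rdr6, 4.32% in 2X and 23.6% in 1X had its ends. Without AT1G53640 intron 2 the shares with equal ends were 6.39% in rdr6, 3.37% in 2X and 7.98% in 1X. Longer reads, of 25 to 37 nt, overlapped small RNAs in 35.0% (rdr6), 8.55% (2X) and 26.2% (1X) of cases. The 5′ base of 24-nt reads was A in 51.0% of rdr6 and 50.7% of Col-0 small RNAs, and in 56.7% (rdr6), 55.6% (2X) and 54.3% (1X) of the dsRNA-seq reads of that length.

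By the rule of at least 10 reads in the 1X library, 58 of the 737 long introns held dsRNA (7.87%), against 246 of all 118119 introns (0.208%). The 737 include the 59 introns without kept bases, which could hold no counted read. A longer intron has more bases in which to collect reads, so this share is expected to grow with length, and it did, with 1.62% above 500 and up to 1000 nt, 6.50% above 1000 and up to 2000 nt, and 15 of 75 introns above 2000 nt. At the limit, 3 introns had exactly 10 reads and 6 had 11, while 7 had 9 and 7 had 8. The other libraries placed 43 (rdr6) and 42 (2X) long introns at 10 or more reads. Of these, 36 of the rdr6 introns were also among the 58 (83.7% of 43 and 62.1% of 58), as were 21 of the 42 2X introns (36.2% of 58).

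Of the 58, 55 also had 24-nt small RNAs on both strands in Col-0, against 17.4% of all long introns. Both signals were more frequent in longer introns. Together the 58 had 1524 sense and 2030 antisense reads in rdr6, 575 and 536 in 2X, and 1057 and 1736 in 1X, where 62.2% were antisense (56.2% without AT1G53640 intron 2). Much of their 1X signal was of siRNA length. Only 16 of the 58 kept 10 reads once reads of 20 to 25 nt were left out, and 13 of these 16 had 24-nt RNAs on both strands.

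The remaining 3, named here after their values were seen, were the first intron of AT1G27110, the eighth of AST56 and the first of PR5K. AST56, a sulfate transporter gene, had 44 sense and 2 antisense reads in rdr6, 9 and 0 in 2X, and 28 and 0 in 1X. PR5K, which encodes a receptor-like kinase, had 33 and 14 in rdr6, 15 and 3 in 2X, and 9 and 9 in 1X. AT1G27110 had 25 and 0 in rdr6, 8 and 0 in 2X, and 10 and 3 in 1X. In AST56 and AT1G27110 sense reads thus prevailed in each dsRNA-seq library.

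The intron with the most dsRNA was the second of AT1G53640, an uncharacterized gene (chr1:20023772-20024949, minus strand, 1178 nt, within coding sequence). It had 245 sense and 876 antisense reads in rdr6, 31 and 97 in 2X, and 50 and 446 in 1X, next to 443 and 387 small RNA reads in rdr6 and 384 and 486 in Col-0. Antisense reads thus prevailed in dsRNA-seq, while the small RNAs came from both strands. Of the 446 antisense 1X reads, 436 (97.8%) lay within 100 nt, from base 482 to base 581 of the intron, and 875 of the 876 in rdr6 also fitted in a window of 100 nt. That 100-nt stretch of the 1X library is printed here because it carries the largest share of antisense intron RNA, again with bases covered by antisense 24-nt reads of Col-0 in capitals (82 of 100).
AT1G53640 intron 2, antisense, chr1:20024369-20024468, plus strand: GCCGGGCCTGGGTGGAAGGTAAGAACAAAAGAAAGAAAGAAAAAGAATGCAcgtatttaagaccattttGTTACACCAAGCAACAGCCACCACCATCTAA

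The third intron of HAK5, which encodes a high-affinity potassium transporter, ranked next (chr4:7799731-7801215, minus strand). Its reads numbered 73 sense and 169 antisense in rdr6, 102 and 61 in 2X, and 115 and 237 in 1X, with 1643 and 1518 small RNA reads in rdr6 and 1089 and 1160 in Col-0. In 2X, 100 of the 102 sense reads fell within 100 nt. The strand in excess was antisense in rdr6 and 1X and sense in 2X.

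LBD26, a gene of the LOB-domain transcription factor family, followed with its first intron, which lies in the 5′ UTR (chr3:10373397-10375867, plus strand). It had 35 sense and 119 antisense reads in rdr6, 26 and 49 in 2X, and 89 and 115 in 1X. Its small RNAs were nearly equal on both strands, with 1678 and 1712 in rdr6 and 1151 and 1156 in Col-0. In rdr6, 108 of the 119 antisense dsRNA reads lay within 100 nt.

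CYP714A2 encodes a cytochrome P450 of gibberellin metabolism. Of its first intron (chr5:8565471-8566479, minus strand), 550 nt were kept. It had 291 sense and 5 antisense reads in rdr6, 53 and 2 in 2X, and 41 and 52 in 1X. Antisense dsRNA reads were thus rare in rdr6 and 2X although the small RNAs stayed two-sided, at 1089 and 888 in rdr6 and 829 and 959 in Col-0. All 291 sense reads in rdr6 lay within 100 nt.

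AT4G03380, an uncharacterized gene, contributed 2 introns to the 10 with the most Col-0 dsRNA reads (1X and 2X together). Intron 5 had 9 sense and 32 antisense reads in rdr6, 5 and 16 in 2X, and 48 and 90 in 1X. Intron 3, which holds an inverted repeat with arms of 21 nt, had 8 and 40 in rdr6, 14 and 17 in 2X, and 60 and 52 in 1X. Both had fewer reads in rdr6 and in 2X than in 1X. The second intron of AT1G64340, a predicted kinase gene, had 9 and 5 in rdr6, 1 and 7 in 2X, and 62 and 56 in 1X. The first intron of AT1G33070, a MADS-box family gene, had 55 and 20 in rdr6, 10 and 18 in 2X, and 36 and 41 in 1X. The last 2 of the 10 were long even for this class. The fourth intron of AT1G35895 (6246 nt, in a gene-poor region) had 145 and 25 in rdr6, 48 and 21 in 2X, and 58 and 16 in 1X. The first intron of RPP7 (7384 nt) is described with its gene below.

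**Figure D3:**
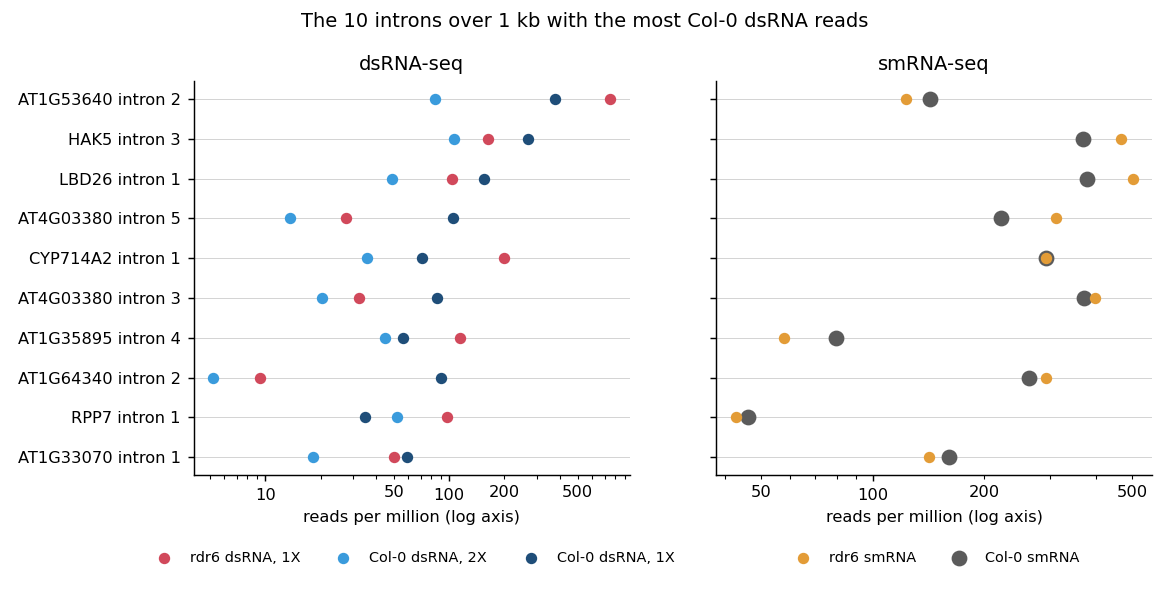
Single-location reads of the 10 long introns with the most Col-0 dsRNA reads, both strands together, in the dsRNA-seq and smRNA-seq libraries (RPM on log axes, 1 point per library). AT1G53640 intron 2 leads in rdr6 and 1X, and HAK5 intron 3 does in 2X.

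**Figure D4:**
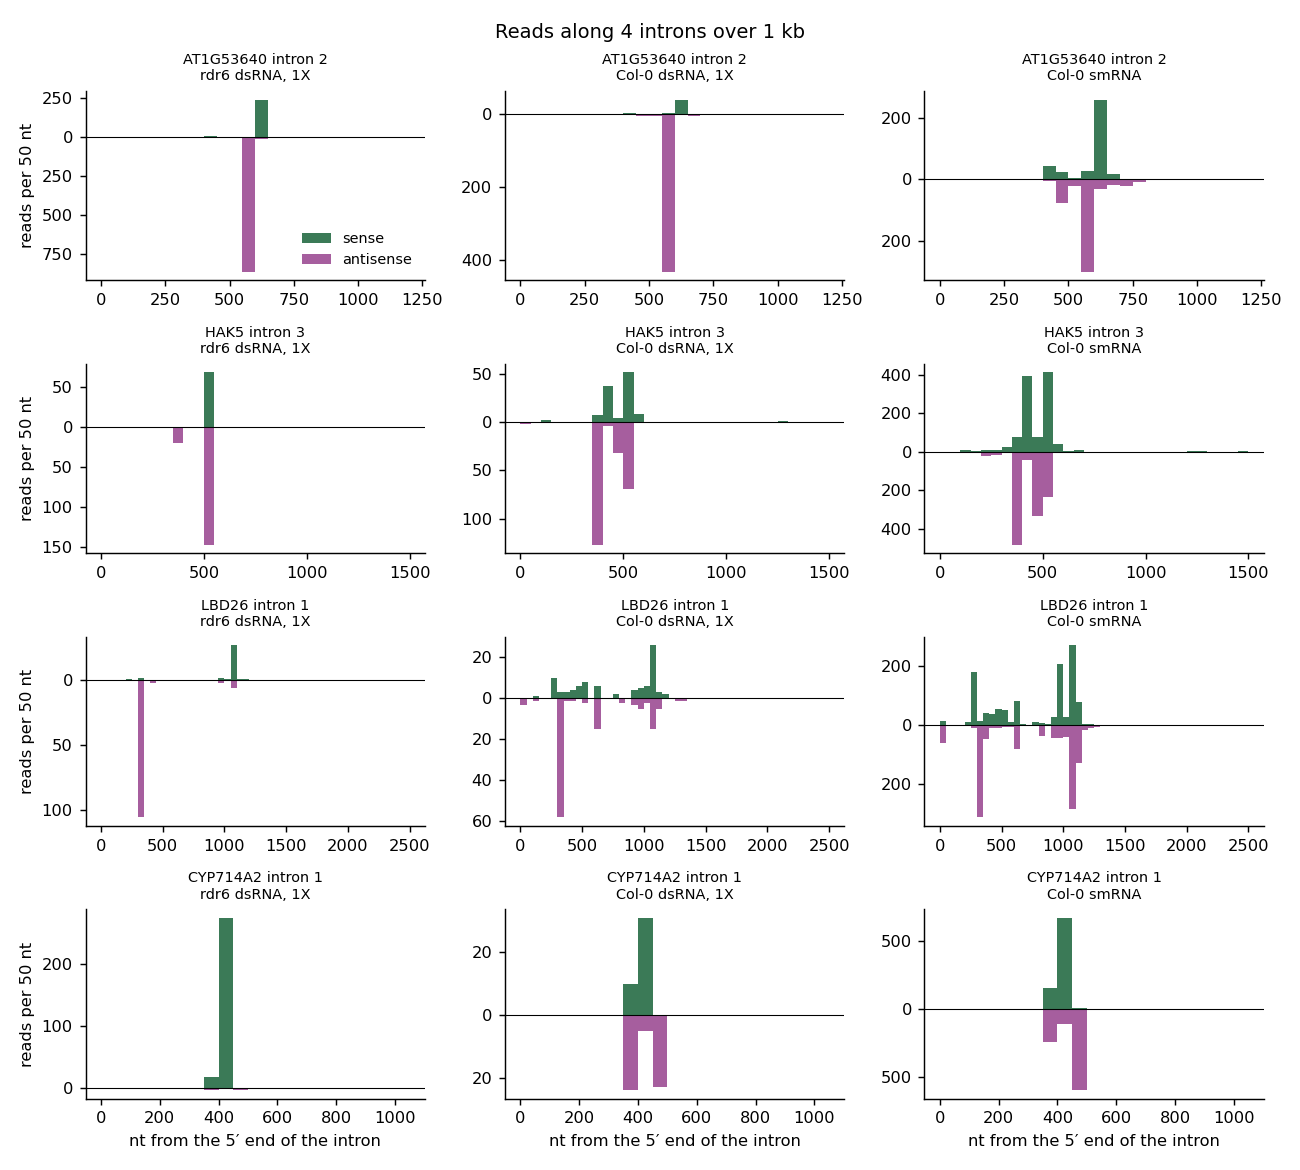
Reads per 50-nt bin along the second intron of AT1G53640, the third of HAK5 and the first of LBD26 and CYP714A2 (distance from the start of the intron, nt), for rdr6 dsRNA, 1X dsRNA and Col-0 smRNA, with sense reads upward and antisense reads downward. The dsRNA reads of AT1G53640 pile up near bases 482 to 581, and those of CYP714A2 lie within a single narrow peak.

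By the rule of at least 5 reads of 24 nt on each strand in Col-0 smRNA, 128 long introns of 121 genes carried two-sided 24-nt RNAs (17.4%), against 514 of all introns (0.435%). The share was 2.93% above 500 and up to 1000 nt, 14.2% above 1000 and up to 2000 nt, and 45.3% (34 of 75) above 2000 nt. The smaller strand had exactly 5 reads in 11 introns and 6 in 8, while 10 introns had 4 and 10 had 3. In the rdr6 smRNA library, which the rule did not use, 129 introns met the same limit, and 116 met it in both (89.9% of 129 and 90.6% of 128).

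The 128 introns took 96.1% of the long-intron reads in rdr6 smRNA and 95.9% in Col-0 smRNA. They also held 88.0% of the dsRNA-seq reads in rdr6, 58.4% in 2X and 86.4% in 1X. Across them the antisense share of 24-nt reads had a median of 50.9% in rdr6 and 50.3% in Col-0, and lay between 25 and 75% in 90 introns in rdr6 and in 93 in Col-0. In single introns it reached 94.7% at one end and 5.77% at the other in Col-0, so the balance of the sums was not shared by each intron.

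The small RNAs were concentrated within these introns. The 24-nt reads of Col-0 covered a median of 16.9% of the kept bases (quartiles 11.4 and 27.9%), and the best window of 200 nt held a median of 69.6% of the reads (quartiles 53.7 and 88.9%). Pairs of sense and antisense 24-nt reads were counted at each shift, among them the 3′ overhang of 2 nt that DCL3 leaves when it cuts a duplex. At that offset 1031 pairs were counted in rdr6, against 794 and 850 at the neighbouring offsets, and 731 in Col-0, against 563 and 572. Offsets 0 to 8, which leave no such overhang, gave more pairs than this, with 1087 to 1212 in rdr6 and 742 to 843 in Col-0.

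Leading introns by the smaller strand were LBD26 (887 reads of 24 nt in Col-0), HAK5 (766), CYP714A2 (656), AT4G03380 intron 3 (622), AT1G64340 (539), AT4G03380 intron 5 (426), AT1G33070 (332), AT1G53640 (307), the second intron of AT1G35215 (264) and the first of AT5G47130 (236). AT5G47130 belongs to the Bax inhibitor family, and AT1G35215 is uncharacterized. All 10 were also among the 58 introns with dsRNA, against 7.87% of all long introns.

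Place, repeats and base composition of the introns with two-sided 24-nt RNAs were compared with those of the rest. A 1-Mb window was called gene-poor when it held under 50% of the median gene number, and 18.8% of the 128 lay in such windows, compared with 7.10% of the 606 introns that met neither rule. For all long introns the share was 9.09%, against 3.88% of shorter ones. An inverted repeat with perfect arms of at least 20 nt was found in 24 long introns. Of these, 15 were among the 128 (11.7%), 7 among the 58, and 9 among the 606 (1.49%). The 128 were also longer, with a median of 1592 nt, against 1256.5 nt in the 606. Length was not held fixed in these shares. The median AT content was 71.8% in the 128, 71.7% in the 58 and 69.3% in the 606. Of the genes, 29 of 121 with two-sided 24-nt RNAs were uncharacterized or hypothetical by their RefSeq product (23.97%), compared with 61 of 587 (10.4%) with neither signal. Disease resistance products of the NB-ARC or NBS kind numbered 8 of 121 (6.61%) and 13 of 587 (2.21%). These words were chosen after the products were seen, and no share in this paragraph was tested. The 606 include the 59 introns without kept bases, which could meet neither rule.

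The 606 introns that met neither rule, 59 of them without kept bases, had few reads, mostly of the sense strand. They had 337 sense and 50 antisense reads in rdr6 (12.9% antisense), 750 and 135 in 2X (15.3%), and 368 and 47 in 1X (11.3%). Their density was 0.4002 RPKM in rdr6, 0.892 in 2X and 0.489 in 1X, where the rule itself limits each intron to 9 reads. Among them, AGAMOUS intron 2 (chr4:10384147-10387145), of the gene for stamen and carpel identity, had 6 sense reads in rdr6, 15 in 2X and 9 in 1X, with no antisense read in these libraries.

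The second round of rRNA depletion was compared with the first in Col-0. Summed over the long introns, 2212 reads in 2X stood against 3485 in 1X, a log2 ratio of −0.88 in RPM, whereas shorter introns gave 0.11. Without AT1G53640 intron 2 the ratio was −0.75. The difference followed read length. For 24-nt reads the log2 ratio was −3.66 in long and −2.29 in shorter introns, and without reads of 20 to 25 nt it was 0.13 in long (0.42 without AT1G53640 intron 2) and 0.50 in shorter introns. The last values count 2X reads of 15 and 16 nt, 349 of them in long introns, and 1X contained no reads of these lengths. For reads of 17 to 19 nt the log2 ratio was −0.38 in long (0.02 without AT1G53640 intron 2) and 0.73 in shorter introns. With reads of 20 to 25 nt left out, the sense strand of the long introns was at 0.49 and the antisense strand at −0.35. Without AT1G53640 intron 2 these were 0.48 and 0.29. The 2X reads of 15 and 16 nt enter these sums, with 161 sense and 188 antisense reads over all long introns. How far the antisense ratio depends on that intron or on these lengths was not tested. The libraries differ in 24-nt share over the whole genome, so a change of these introns and a change of the library cannot be told apart. In bulk buds, fewer cells of a type and less RNA per cell cannot be told apart either.

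An intron was called when the libraries differed at least 2-fold in RPM and the Audic–Claverie test, an exact one-sided test of 2 counts in 2 libraries, gave a p under 0.001. Of 461 long introns with reads in either library, 32 were lower in 2X (6.94%), against 0.859% of all 16758 introns tested, and 5 were higher (1.08%), against 0.143%. Long introns hold more reads, which makes calls easier in either direction. Among the 100 long introns with at least 10 reads in the pair, 34 were above and 66 below equality, with a median log2 ratio of −1.12, against −0.88 for all introns with such counts. The same shift was seen in the 128 introns with two-sided 24-nt RNAs, of which 106 were lower and 20 higher in 2X per read sequenced, and 47 lower and 52 higher once reads of 20 to 25 nt were left out. With those reads left out, only 4 of the 32 falls remained and the median of 44 introns was 0.01.

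The largest falls with at least 30 reads were those of the first intron of AT1G10586, a bHLH transcription factor gene, and of AT1G64340. AT1G10586 had 1 sense and 1 antisense read in 2X, against 44 and 3 in 1X, a log2 ratio of −4.78 (exact 95% counting interval −7.87 to −2.85, exact one-sided Audic–Claverie p = 2.7e-14). AT1G64340 intron 2 had 1 and 7 in 2X, against 62 and 56 in 1X (−4.11, exact p = 1e-30). The first intron of AT4G11170 and the second of AT1G59780, both in disease resistance genes, also fell. AT4G11170 had 1 and 3 in 2X, against 2 and 40 in 1X (−3.62, exact p = 5.7e-11), and AT1G59780 had 2 and 2 in 2X, against 9 and 31 in 1X (−3.55, exact p = 2.2e-10). AT4G03380 intron 5 followed at −2.94 (exact p = 4.7e-27). These falls were of both kinds, of one-stranded reads in AT1G10586 and AT4G11170, and of two-stranded ones in AT1G64340.

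Of the 10 introns with the most Col-0 dsRNA reads, 7 were called lower in 2X and 3 were not called. Among all long introns tested, 6.94% were called lower, and among all introns 0.859%. The 10 were chosen by their 1X and 2X reads together. Their deep counts make calls easier, and a high 1X count favours both the choice and a fall. AT1G53640 intron 2 had a log2 ratio of −2.18 (exact Audic–Claverie p = 7.4e-66), LBD26 one of −1.67 (exact p = 3.2e-20) and HAK5 one of −1.34 (exact p = 1.3e-24). CYP714A2 was at −0.98 and so missed the 2-fold limit (exact p = 2.3e-05). Its sense reads numbered 53 in 2X and 41 in 1X, and its antisense reads 2 in 2X and 52 in 1X. The other 2 not called were AT1G35895 intron 4, at −0.33, and RPP7 intron 1, at 0.57.

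Higher in 2X were 5 introns, and short fragments made up much of the signal. The first intron of YAB2, a YABBY transcription factor gene, had 4 sense and 61 antisense reads in 2X and none in 1X, which with 3 counts in place of none gives a log2 ratio of at least 4.21 (exact Audic–Claverie p = 3.5e-18). Of these 65 reads, 59 were of 15 or 16 nt, lengths that 1X did not contain, and 37 had the mapped ends printed below. The most-read single sequence of the intron had 20 reads, so different read sequences shared those ends. The study's alignment allowed mismatches, and reads so short can differ from the printed reference bases. Whether they came from another locus was not tested. AT5G48610 intron 3 had 3 and 26 in 2X, against 5 and 0 in 1X (2.31, exact p = 0.00012), and all 26 antisense reads had the ends of its printed 15-nt stretch. Neither had a 24-nt read of its strand over it in Col-0 smRNA, hence the lower case.
YAB2 intron 1, antisense, chr1:2676170-2676184, minus strand: ggggatctagctcag
AT5G48610 intron 3, antisense, chr5:19712813-19712827, minus strand: agaattccgtgaacc
PAL4 intron 1, sense, chr3:3204748-3204765, plus strand: GGTCTGGACACGAAGCGG

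The PAL4 stretch is that of the most-read 2X sequence of its intron, with 23 reads of these ends, and lies under 24-nt small RNAs. PAL4 encodes an entry enzyme of phenylpropanoid synthesis, and its first intron had 59 sense reads and 1 antisense read in 2X, against 15 and 2 in 1X (log2 ratio 1.59, exact Audic–Claverie p = 1.1e-05). CLE11 encodes a small signalling peptide, and its first intron had 46 antisense reads alone in 2X, against 2 sense and 5 antisense in 1X (2.49, exact p = 3.7e-07). AT3G44510 intron 2, named after its values were seen, had 21 and 2 in 2X, against 1 and 2 in 1X (2.71, exact interval 0.99 to 5.09, exact p = 0.0002). With reads of at least 17 nt in both libraries, a setting added after seeing the data, 3 of the 5 calls remained and AT5G48610 turned to −0.82.

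**Figure D5:**
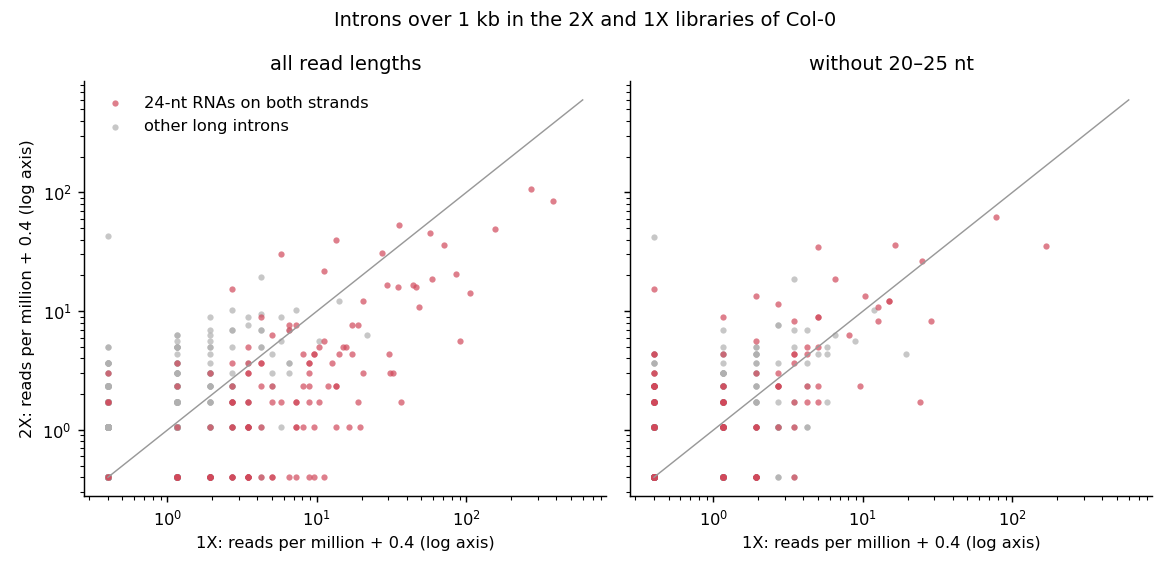
Each point is a long intron with kept bases, with its 2X reads set against its 1X reads (RPM plus 0.4, log axes), for all reads on the left and without reads of 20 to 25 nt on the right, in red where 24-nt RNAs lay on both strands in Col-0 and in grey otherwise. For all reads, 106 of the 128 red points lie below the diagonal, and without 20 to 25 nt 47 do.

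A further 15 introns had at least 10 reads in 2X without meeting either rule. In 13 of them sense reads prevailed, with 153 sense reads and 1 antisense read in 2X, 39 and 3 in rdr6, and 60 and 0 in 1X. The other 2 were YAB2 and AT5G48610. These introns were chosen by their 2X and 1X reads, so the higher level in 2X is no finding.

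In rdr6 the summed dsRNA of long introns was close to that of Col-0, whereas its length was not. The 4196 reads in rdr6 against 3485 in 1X gave a log2 ratio of 0.08, which turned to −0.15 without AT1G53640 intron 2. Reads of 24 nt gave −3.97 (shorter introns −3.25), reads of 17 to 19 nt gave 1.32 (shorter introns 1.32), and all reads outside 20 to 25 nt gave 1.00 (shorter introns 0.32). Among 88 long introns with at least 10 reads in the pair the median was −0.60, with 32 above and 56 below equality, and −0.19 for all introns. Without reads of 20 to 25 nt the median of 41 long introns was 1.25. Scaling by all mapped reads moved the median of all introns to 0.33, so directions near 0 depend on the scaling.

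This comparison shares the 1X library with that of the depletion rounds, so the same 1X counts enter both. Of 429 long introns tested, 18 were lower in rdr6 (4.20%), against 0.704% of 10800 introns, and 10 were higher (2.33%), against 0.435%. None of the 18 falls remained without reads of 20 to 25 nt. Over the whole genome 24-nt reads made up 2.42% of the rdr6 dsRNA library, against 23.4% of 1X. The deepest were AT1G64340 intron 2, with 14 reads in rdr6 and 118 in 1X (log2 ratio −3.26, exact Audic–Claverie p = 2.6e-25), and the first intron of AT5G47130, with 2 sense and 7 antisense in rdr6, against 13 and 47 in 1X (−2.92, exact p = 1.9e-12). The second intron of AT4G08545, of a predicted receptor-like gene, had 1 and 4 in rdr6, against 11 and 15 in 1X (−2.57, exact p = 1.2e-05). The first intron of the phosphate transporter gene PHT1;8 had 2 and 3 in rdr6, against 12 and 13 in 1X (−2.51, exact p = 2.2e-05), and AT1G59780 intron 2 had 2 and 6 in rdr6, against 9 and 31 in 1X (−2.51, exact p = 1e-07).

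None of these 5 introns was called for 24-nt small RNAs. Their log2 ratios of rdr6 over Col-0 smRNA were 0.10 (AT1G64340), 0.00 (AT5G47130), 0.17 (AT4G08545), 0.02 (PHT1;8) and −0.47 (AT1G59780). The 24-nt reads that were fewer in rdr6 dsRNA-seq were thus present at similar levels in the matching smRNA library in the first 4.

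The 10 introns with more dsRNA in rdr6 were led by the first intron of AT5G38540, a lectin family gene. It had 2 sense and 123 antisense reads in rdr6, against 5 and 9 in 1X (log2 ratio 2.97, exact Audic–Claverie p = 9.7e-21), and 0 and 33 in 2X. The second intron of AT1G52990, of the thioredoxin family, had 42 and 0 in rdr6, against 5 and 0 in 1X (2.88, exact p = 1.3e-07). That of AT1G33930 had 25 and 2 in rdr6, against 5 and 0 in 1X (2.25, exact p = 0.00023), but fell below equality, to −0.98, when reads of 20 to 25 nt were left out. AT5G66595 intron 1 had 1 and 75 in rdr6, against 1 and 17 in 1X (1.89, exact p = 2.2e-08), and AT4G10060 intron 2 had 8 and 35 in rdr6, against 2 and 9 in 1X (1.78, exact p = 5.2e-05). In each of the 5 the strand that prevailed in rdr6 was also the strand that prevailed in 1X.

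CYP714A2 intron 1 did not keep its strand. It rose 1.48 on the log2 scale (exact Audic–Claverie p = 1.1e-20) through sense reads, 291 in rdr6 against 41 in 1X, while antisense reads numbered 5 in rdr6 and 52 in 1X. AT1G10586 intron 1 had 110 sense reads alone in rdr6, against 44 and 3 in 1X (1.04, exact p = 1.3e-05), and AT1G35895 intron 4 was at 1.01 (exact p = 1.2e-07). NPQ4, the gene of the photoprotective PsbS protein, had 61 and 17 reads in its first intron in rdr6, against 17 and 5 in 1X (1.64, exact p = 2.6e-07), and is named here after its values were seen. AT1G53640 intron 2 stood at 0.99, just under the 2-fold limit (exact p = 8.7e-40).

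The 24-nt small RNAs of the long introns were at similar levels in both genotypes. Summed and scaled by all 24-nt reads, 27464 in rdr6 against 22702 in Col-0 gave a log2 ratio of 0.08. Over the 173 long introns with at least 10 such reads in the pair the median was 0.01, with 89 above and 84 below equality, and 163 lay within 2-fold. Over the 128 two-sided introns the median was −0.01 (range −1.78 to 1.54) and 124 lay within 2-fold. Only 2 of 336 tested introns were higher in rdr6 (0.595%), against 0.262% of 4954, and 1 was lower (0.298%), against 0.262%, which is near the background.

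The 2 rises were AT3G44510 intron 2, in a hydrolase family gene, with 63 reads of 24 nt in rdr6 against 19 in Col-0 (log2 ratio 1.54, exact Audic–Claverie p = 9.5e-06), and PP2-A3 intron 1, named after its values were seen, with 15 in rdr6 against 1 in Col-0 (3.71, exact interval 1.01 to 9.11, exact p = 0.00064). The fall was AT2G15260 intron 5, of a RING-domain gene, with 15 in rdr6 against 35 in Col-0 (−1.41, exact p = 0.00047). Introns with more reads had smaller ratios, such as LBD26 at 0.36 (exact p = 7.5e-17), AT4G03380 intron 5 at 0.44 (exact p = 3.5e-14) and AT1G53640 at −0.32 (exact p = 3.2e-05), none of which reached 2-fold.

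Across introns, levels were compared by rank. Spearman's rho was 0.85 for 24-nt reads of rdr6 and Col-0 smRNA (336 introns), 0.38 for rdr6 and 1X dsRNA (429) and 0.27 for 2X and 1X (461). Col-0 1X reads followed 24-nt small RNAs with rho 0.52 (407 introns) and, without reads of 20 to 25 nt, −0.07 (390). Each rho used only introns with a read in either set of the pair. Leaving out introns empty in both can lower rho where counts are sparse, so low values do not show absence of a relation. Points share libraries and intron length, many counts are low, and these values are descriptions over introns, which are not replicates.

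Among 4 genes known for heterochromatic introns, IBM1 and RPP7 had introns over 1000 nt, 4 in all. Such introns carry DNA methylation, and full-length transcripts depend on factors that let RNA polymerase II read through them. RPP7 is a resistance gene against downy mildew and IBM1 encodes a histone H3K9 demethylase. All 4 introns had two-sided 24-nt RNAs, against 17.4% of all long introns and 45.3% of those above 2000 nt. Of the 4, 2 had dsRNA, against 7.87% of all, and 1 was called, higher in rdr6 dsRNA, against 2.33% of those tested. RPP7 intron 1 (chr1:21746500-21753883, plus strand, in the 5′ UTR) had 84 sense and 62 antisense reads in rdr6, 51 and 29 in 2X, and 16 and 30 in 1X, so that rdr6 over 1X was 1.48 (exact Audic–Claverie p = 6e-11). RPP7 intron 2 had 62 and 23 in rdr6, 19 and 6 in 2X, and 20 and 18 in 1X (0.97, not called). RPP7 intron 3 and IBM1 intron 7 had at most 4 reads in any dsRNA-seq library. The small RNAs of RPP7 intron 1 were 110 and 180 in rdr6 and 121 and 160 in Col-0.

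Floral and flowering regulators were the second list. Of 20 such genes, 10 had 11 long introns, and those of FLC and AGL31 (MAF2) had no kept base. None of the 11 met either rule, at shares of 7.87% (dsRNA) and 17.4% (two-sided 24-nt RNAs) over all long introns, and none was called. With 9 measured introns such counts of 0 do not set the list apart. Their dsRNA-seq reads were almost all sense, with 12 and 0 in rdr6, 32 and 2 in 2X, and 13 and 2 in 1X. Small RNAs came mainly from the second intron of STK, the ovule identity gene, with 16 sense and 43 antisense reads in rdr6, against 4 and 31 in Col-0. Its 24-nt reads on the sense strand numbered 7 in rdr6 and 0 in Col-0.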

How the data were processed

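The labels and the study's methods say that rRNA-depleted RNA was digested with RNase One, made into small RNA libraries and aligned to TAIR9. The counts that the authors deposited are raw reads per non-redundant sequence, with the length and every genomic location of each sequence and no normalization. The sequences themselves were not used here. Introns came from TAIR10.1 (RefSeq). Where a sequence had 2 nuclear locations, the reference was identical at both in 86.6 to 91.6% of dsRNA-seq and 55.0 to 57.9% of smRNA-seq pairs, and in at most 1 pair after a shift of 50 nt.

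Single-location reads wholly inside kept intron bases were summed by strand and length and scaled by single-location nuclear reads (24-nt reads for 24-nt RNAs). Intervals are 95% Wilson intervals and, like the floor of 3 counts, cover counting error only, since reads without molecular identifiers are not independent molecules. Calls used the exact one-sided Audic–Claverie test, following the study, without adjustment for the number of introns. It was tested on simulated data. An inverted repeat is a pair of exact reverse-complement arms.

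Named introns were the 10 with the most Col-0 dsRNA reads, the 10 with the highest smaller-strand 24-nt count in Col-0, up to 5 called introns of largest log2 ratio per direction and comparison with at least 30 reads in the pair, and the introns of both gene lists. The members, lists and rules were chosen with earlier results of these data known. Alternatives covered read locations, sequences counted once, overlap, kept length, thresholds, scaling, adjustment and read length. The tools were numpy 2.4.6 and scipy 1.17.1 for the tests, pandas 2.3.3 for the sums and matplotlib 3.10.9 for the plots, run under Python 3.11.15.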

Additional observations from a re-analysis of the deposited data

How the results depend on the processing

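No paired analysis was possible because the groups compared share fewer than 2 replicate numbers. Each condition has 1 library, so all values below are properties of these libraries, and depth limits most introns. No 1X read fell in 398 long introns, among them the 59 without kept bases, where no depth would give one. Transposable elements were not annotated here.

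The number of introns with two-sided 24-nt RNAs (128) stayed within 1.5 times under every alternative run. The 58 introns with dsRNA became 116 with reads of all locations divided among them, 99 at 5 reads, 30 at 20 reads, 16 without reads of 20 to 25 nt, and 34 in 2X with reads of at least 17 nt, a setting added once the data had been seen. The 32 falls in 2X became 69 with all locations and 4 without reads of 20 to 25 nt. The 5 rises became 1 with each sequence counted once and 3 with reads of at least 17 nt.

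For rdr6 dsRNA the 10 rises became 19 with all locations, 4 with each sequence counted once, 16 scaled by mapped reads, 3 at 4-fold and 21 against 2X. The 18 falls became 8 with each sequence counted once, 11 scaled by mapped reads, 0 without reads of 20 to 25 nt and 5 against 2X, of which 0 were among the 18. For 24-nt RNAs the 2 rises became 0 with each sequence counted once, 1 at 4-fold, 1 by adjusted p and 0 with 21-nt reads. The 1 fall became 0 in each of these and 0 scaled by mapped reads. Scaling by mapped reads moved the median log2 ratio of all introns from −0.88 to −1.07 (2X over 1X), from −0.19 to 0.33 (rdr6 over Col-0 dsRNA) and from 0.04 to 0.17 (24 nt).

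Some single introns changed sign. In 2X, AT5G48610 intron 3 was at −0.26 with each sequence counted once and −0.82 with reads of at least 17 nt, and AT1G59780 intron 2 at 0.059 without reads of 20 to 25 nt. For rdr6 dsRNA without those reads, PHT1;8 was at 1.19, AT1G64340 at 0.19 and AT1G33930 at −0.98, and PHT1;8 at 0.074 with all locations. Against 2X, PHT1;8 was at 2.36, AT1G59780 at 1.04, AT1G64340 at 0.84 and AT4G08545 at 0.36. The cause was not tested.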
